A study of Homo sapiens with 21 samples.

Results

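Interferon-stimulated genes are the antiviral and regulatory genes that cells switch on when they sense an interferon. A set of 41 such genes, chosen by symbol, was followed through the TGFβ time course of HMLE cells, an immortalized line of human mammary epithelial cells that undergoes an epithelial-to-mesenchymal transition under TGFβ. All 41 were present among the 23201 gene symbols of the expression table, and 38 of them were among the 13343 genes with a mean of at least 10 normalised reads that entered the test. MX2, RSAD2 and CMPK2 lay under that mean and are given as values only. The cells were sequenced untreated (d0) and after 1, 4, 7, 10, 15 and 20 days of TGFβ (d1 to d20), with 3 libraries for each of the 7 timepoints, from biological triplicates that were seeded at one starting density. The dose of TGFβ is not given in the sources used here. Untreated cells stand at d0 alone, so the effect of TGFβ and that of the days in culture cannot be told apart.

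Type I and type III interferons bind receptors that signal through the kinases JAK1 and TYK2 to STAT proteins. STAT2 takes part with IRF9 in the complex ISGF3, which binds the interferon-stimulated response element (ISRE) in the promoters of most genes of this kind, whereas interferon gamma acts on the gamma-activated site (GAS). The products sense viral RNA, cut or sequester it, block the entry, assembly and release of viruses, attach the ubiquitin-like protein ISG15 to other proteins and feed back on the pathway itself. In epithelial cells many of these genes keep a low level without infection.

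A normalised read is a read divided by the size factor of its library. Total reads lay between 18847917 and 22667754 per library. Outside d7, libraries of one timepoint differed from each other by 0.214 to 0.243 (root mean square difference in log2 over the genes tested). At d7 the first and second library differed by 0.223, but the third stood 0.472 and 0.457 away from them, and over all genes it lay nearest to the means of d4 (0.426) and d20 (0.427). Its summed proliferation genes reached 68232 normalised reads against 50744 and 51854 in the other d7 libraries. The summed basal mammary epithelial genes (KRT5, KRT14, KRT17, TP63, LAMA3 and LAMB3) reached 455823 against 819094 and 766536. Counts of members called at d7, and the rises of IFI6, OAS2, IFITM1, IFI44L, MX1 and BST2 there, are therefore given with and without the third library. Without it, IRF9, IFI27, XAF1 and ISG15 were 5.77-fold, 5.45-fold, 4.54-fold and 4.28-fold above d0 at d7. KRT5, KRT14 and TP63 were present in every library, while the leukocyte markers PTPRC and CD3E and the endothelial marker CDH5 had at most 1.06 normalised reads in any library. Other genes of the same marker lists were present and moved: the leukocyte list, nearly all of it CSF1R and CD68, summed to 629 to 701 normalised reads at d0, to 2164, 1997 and 1552 in the d7 libraries and to 746 to 884 at d10. The endothelial list, which held KDR, PECAM1 and VWF besides CDH5, summed to 81.1 to 105 at d0, to 245, 207.5 and 67 at d7, to 22.9 to 23.5 at d10 and to 268 to 290 at d15, and KDR was called higher than d0 at d7 (2.98-fold) and lower at d10 (11-fold). Both sums were lowest of d7 in the third library. At d1 the leukocyte sum rose to 1222 to 1372 and the endothelial sum fell to 23.0 to 31.8. The mean log2 level of the tested members fell there, to 7.20 to 7.26 from 7.52 to 7.59 at d0. The part of these genes in the results was not tested.

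The promoter sequences show what many of the members share and what the expression values did not use. RefSeq (GRCh38.p14) gave a window of 250 bases before to 50 bases after the annotated start for 32 of the 41 members, DDX58 among them by a synonym, and IFIT2, OAS2, OASL, IRF7, USP18, MX2, GBP2, IFITM2 and LY6E had none. The ISRE core, searched as GAAANNGAAA on both strands, was found in 20 of the 32 members (62.5%) against 4.38% of all 27305 genes with a window, and in 54.5% of the 44 member windows against 3.57% of all 35116 windows. The GAS motif, searched as TTCNNNGAA, was found in 10 members (31.2%) against 9.38% of all genes. The 2 motifs can overlap, as they do in IFITM1, and 6 members held both. A match is a description of the letters and not a bound site. Stretches of 29 or 30 bases are shown for a selection of the members described below. IFI27, which held both motifs, is not among them. The stretches run in the direction of the gene, with the motif in capitals and its first base counted from the annotated start. The motif marked is the ISRE core (GAS for IRF9).
IFI6 at chr1:27672329-27672358, minus strand, 156 bases before the start: ggagagagggGAAAATGAAActctgcagag
IFI6 at chr1:27672288-27672317, minus strand, 115 bases before the start: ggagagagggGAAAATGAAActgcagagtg
IFI44L at chr1:78620274-78620303, plus strand, 164 bases before the start: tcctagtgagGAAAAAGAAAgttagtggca
IFI44L at chr1:78620365-78620394, plus strand, 73 bases before the start: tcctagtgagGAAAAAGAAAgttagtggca
ISG15 at chr1:1013380-1013409, plus strand, 107 bases before the start: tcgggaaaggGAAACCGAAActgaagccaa
MX1 at chr21:41420559-41420588, plus strand, 12 bases after the start: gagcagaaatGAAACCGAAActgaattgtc
BST2 at chr19:17405741-17405770, minus strand, 130 bases before the start: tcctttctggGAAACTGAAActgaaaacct
IFITM1 at chr11:314024-314053, plus strand, 6 bases before the start: acacttctgaGAAACTGAAAcgacagggga
IFIT1 at chr10:89392497-89392526, plus strand, 116 bases before the start: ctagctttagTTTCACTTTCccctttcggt
OAS3 at chr12:112938452-112938481, plus strand, 12 bases before the start: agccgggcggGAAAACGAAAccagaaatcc
IRF9 at chr14:24161192-24161220, plus strand, 63 bases before the start: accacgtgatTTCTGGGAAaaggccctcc
IFI6 and IFI44L each held the core in repeated stretches, and the 2 stretches of IFI44L were identical. In IFIT1 the core stood on the opposite strand, where it reads TTTC before and after 2 free bases. CMPK2, DDX58, HERC6, IFI16, SAMD9L, STAT2, UBE2L6 and XAF1 held neither motif in the window. Among tested members with a window, the median log2 difference between d7 and d0 was 0.75 for the 19 with the core and 0.50 for the 11 without it, with values that overlapped over most of their range (0.18 to 3.35 and 0.03 to 2.21).

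Across the time course the members had their highest level at d7 and their lowest at d10. The mean was highest at d7 for 31 of the 38 tested members (81.6%), against 8.69% of all genes tested, and lowest at d10 for 27 members (71.1%), against 17.7%. The exceptions at the top were USP18 and LY6E (highest at d0), SAMD9 (d1), IRF1 (d4), UBE2L6 and GBP2 (d15) and IFITM2 (d20). The ratio of the highest to the lowest timepoint mean ran from 1.39 for IFI16, a nuclear sensor of DNA, to 44.69 for IFI44L among the tested members. With the third d7 library standing alone for d7, 5 members had their highest level there, against 6.34% of all genes.

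**Figure D1:**
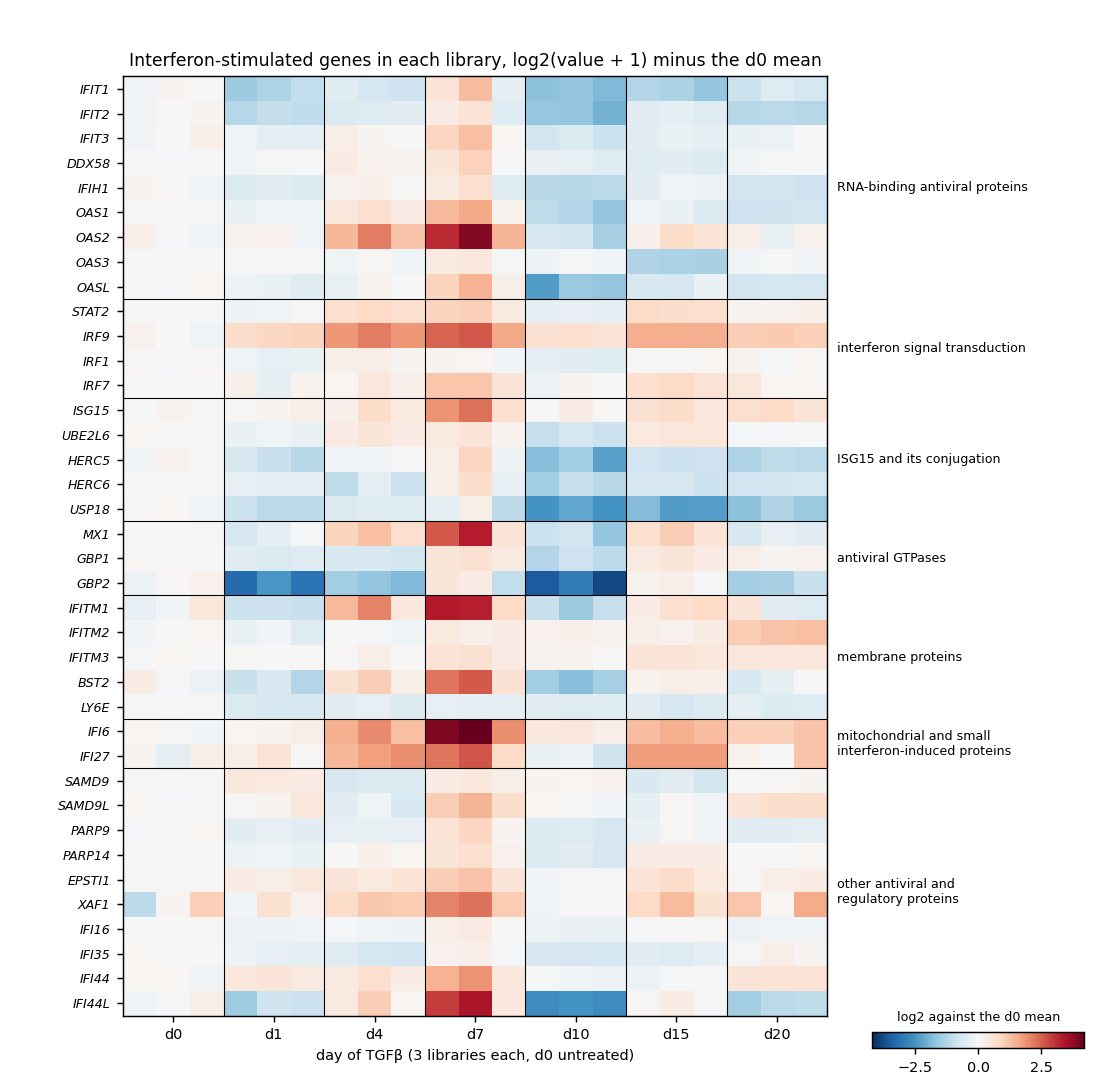
Each row is 1 of the 38 tested members, ordered by role, and each column 1 of the 21 libraries; colour gives log2(value + 1) minus the d0 mean of that gene. The first and second d7 libraries hold the strongest red, with a median over the members of 0.58 and 0.99, the third d7 library is paler (0.26), and the d10 libraries are mostly blue (-0.58, -0.54 and -0.72).

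A gene was called where limma's adjusted p over all genes tested was under 0.05 and the change at least 2-fold. At d7, 13 of the 38 members were called higher than at d0, against 8.79% of all genes tested, and 0 were called lower, against 2.93%. Those 13 were IFI6, OAS2, IFITM1, IFI44L, IRF9, MX1, IFI27, BST2, XAF1, ISG15, IFI44, SAMD9L and OAS1. By limma at an unadjusted p under 0.05, 1 member, LY6E, was lower, and edgeR and DESeq2 called 0 lower. The median log2 difference was 0.53 over the members and 0.00 over all genes. All 3 d7 libraries lay above all 3 d0 libraries for 24 members, against 32.7% of all genes. Without the third d7 library 17 members were called higher, against 9.92% of all genes, and the median was 0.83.

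The 3 libraries of d7 were unequal in one direction. The third library was the lowest of the 3 in 36 of the 38 members, against 41.7% of all genes, with a median log2 difference of -0.88 to the mean of the other two, against 0.01 over all genes. It still exceeded every d0 library in 24 members, where the first exceeded them in 36 and the second in 37; over all genes these shares were 42.8%, 45.2% and 44.4%. IFITM2 and LY6E were the 2 members in which it was not the lowest. The higher proliferation sum and the lower basal epithelial sum of that library moved with these values, and their part in the difference was not tested.

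**Figure D2:**
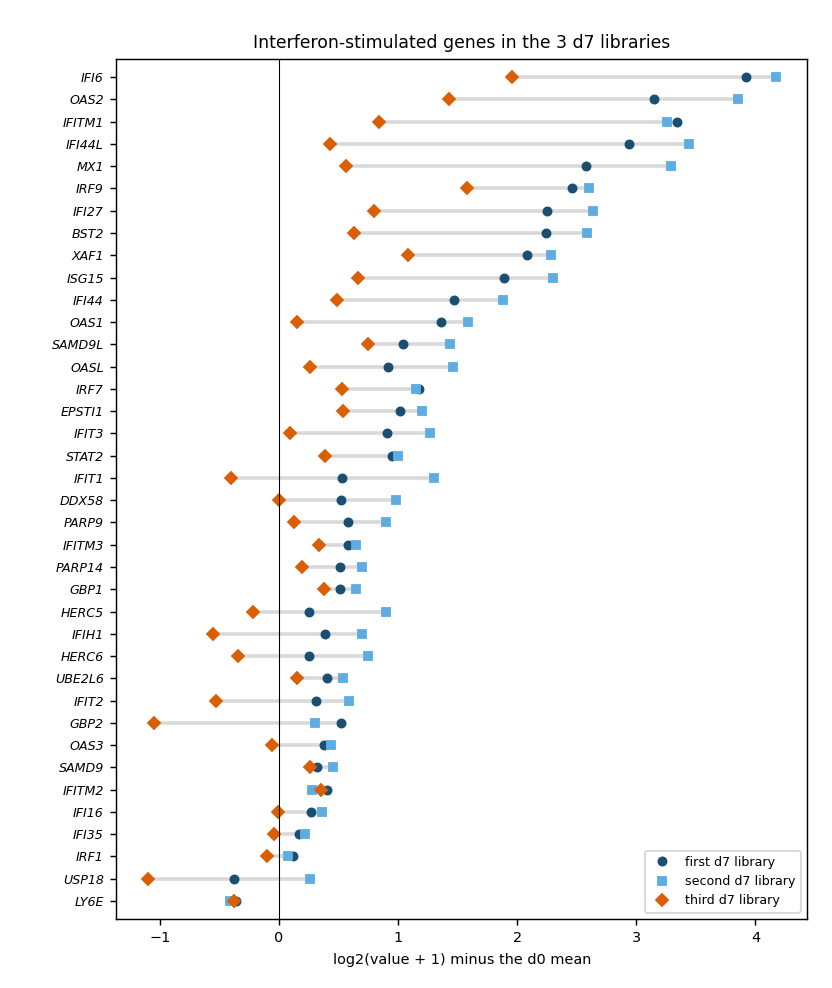
Points give log2(value + 1) minus the d0 mean for each tested member in the 3 d7 libraries, with members ordered by the mean of the first and second library and a grey bar over their range. The third library (diamond) lies lowest in 36 of 38 members, and IFI6, IRF9, OAS2 and XAF1 stay more than 1 above 0 in it.

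At d10 the members lay lowest. Against d0, 13 of 38 were called lower, against 7.34% of all genes, and 0 were called higher, against 6.94%; 1 member, IRF9, was higher at an unadjusted p under 0.05, and edgeR and DESeq2 called 0 higher. The median log2 difference was -0.60. In 27 members all d10 libraries lay below all d0 libraries, against 34.5% of all genes. The 13 were GBP2, IFI44L, USP18, OASL, HERC5, IFIT1, IFIT2, BST2, OAS1, HERC6, IFIH1, MX1 and GBP1. The comparisons of d7 and d10 share the d0 libraries. From d7 to d10, 28 members were called lower, against 9.09% of all genes, and 0 higher, against 3.63%, with 0 higher at an unadjusted p under 0.05 and 0 by edgeR or DESeq2. The median log2 difference was -1.47, and in 38 of 38 tested members every d7 library lay above every d10 library, the third d7 library included, against 33.8% of all genes. Without the third d7 library 30 members were called lower from d7 to d10, against 10.9% of all genes.

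The other days against d0 held fewer calls. At d1, 5 members were called lower (GBP2, IFIT1, IFIT2, IFI44L and USP18), against 3.87% of all genes, and 0 higher, against 6.47%. At an unadjusted p under 0.05, 4 were higher at d1 (EPSTI1, IFI44, IRF9 and SAMD9), and edgeR and DESeq2 called 0. In 22 members all d1 libraries lay below all d0 libraries, against 33.3% of all genes. IFI44L at d1 passed narrowly, with an adjusted p of 0.0499, and did not pass with edgeR, with DESeq2 or with any 1 of the 6 libraries left out. The spread of a gene is estimated over all libraries, d7 included. Without the third d7 library limma's adjusted p for IFI44L at d1 was 2.11e-05, at the same log2 of -1.07. At d4, 5 members were called higher (IRF9, IFI27, IFI6, OAS2 and IFITM1), against 9.68% of all genes, and GBP2 lower, against 5.03%. At d15, 3 were called higher (IFI27, IRF9 and IFI6), against 11.7%, and 3 lower (USP18, IFIT1 and OAS3), against 8.66%, so neither share stood above that of all genes. At d20, 5 were called lower (USP18, GBP2, IFI44L, IFIT2 and HERC5), against 4.72%. At d20 the 3 called higher (IFITM2, IFI6 and IRF9) were a share near the 7.51% of all genes. With libraries scaled to equal totals, 0 were called higher at d20, against 6.07% of all genes, and 6 lower, against 6.73%.

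Between neighbouring timepoints the first step, d0 to d1, held 5 members called lower and 0 higher, against 3.87% and 6.47% of all genes. After d1 more members were called higher than lower up to d7. More were then called lower from d7 to d10 and higher again to d15, and few were called after it. From d1 to d4, 9 were called higher (IFITM1, BST2, IFI44L, OAS2, IFI6, IFI27, MX1, GBP2 and IRF9), against 4.19% of all genes, and SAMD9 lower, against 1.98%. SAMD9 sat at the 2-fold limit, and 0 members were called lower without the first d1 or the first d4 library. From d4 to d7, 11 were called higher (IFI6, IFI44L, GBP2, SAMD9L, OAS2, GBP1, IFIT1, MX1, BST2, ISG15 and HERC6), against 2.27%, and 0 lower, against 1.51%; IRF1 alone was lower at an unadjusted p under 0.05, and edgeR and DESeq2 called 0. This step leaned on single libraries: 5 members were called without the second d7 library (1.74% of all genes), 7 without the third d4 library (2.21%) and 16 without the third d7 library (3.61%). From d10 to d15, 14 were called higher, against 12% of all genes, and OAS3 lower, against 10.2%. The 14 were GBP2, IFI44L, IFI27, MX1, IFITM1, BST2, OAS2, GBP1, UBE2L6, OASL, IFIT2, STAT2, XAF1 and HERC5. The call of IFITM1 was lost in 2 alternatives and that of XAF1 in 7. From d15 to d20, OAS3 was called higher, against 7.55%, and GBP2, IFI44L, IFI27 and MX1 lower, against 7.43%. Quantile normalization gave 2 higher, against 7.79%, and 4 lower, against 7.15%.

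**Figure D3:**
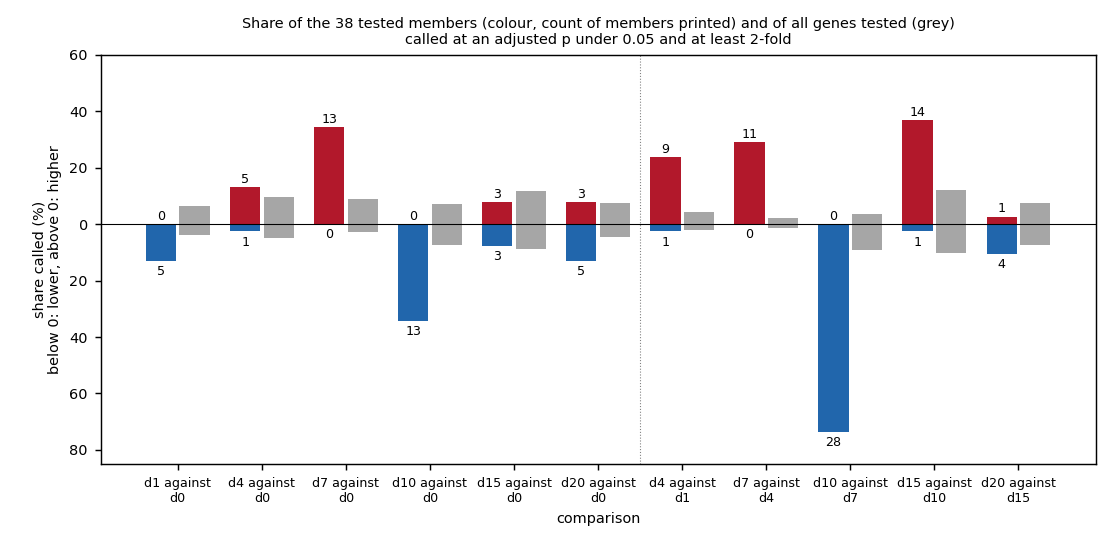
Bars give the share of the 38 tested members (colour, with the number of members printed) and of all 13343 genes tested (grey) called higher (above 0) or lower (below 0) in each comparison, the 6 days against d0 on the left and the 5 neighbouring steps on the right. The 28 members lower from d7 to d10 form the tallest bar, and the coloured bars at d15 and d20 against d0 stay close to the grey ones except for the 5 lower at d20.

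Among the members of the signalling complex, IRF9 changed most. IRF9, the DNA-binding subunit of ISGF3, had 203, 182 and 158 normalised reads at d0, in the order of the libraries in the table. It had 636, 805 and 634 at d4 and 996, 1095 and 543 at d7. All 6 of these later libraries exceeded d0, the third d7 library with the least. IRF9 rose at d7 (4.64-fold, log2 2.21 ± 0.16, adjusted p = 1.63e-10) and also at d4, d15 and d20, where log2 was 1.92 ± 0.16, 1.54 ± 0.16 and 1.04 ± 0.16. It was the one member above d0 on every day by adjusted p, and at d10 its values of 279.6, 297 and 260.1 still exceeded all d0 values. STAT2, its partner in the complex, had 913, 888 and 830.1 at d0, 1699, 1748 and 1146 at d7 and 657, 698 and 673 at d10, so that the 3 groups did not overlap. Its difference to d0 stayed under 2-fold on every day, at a log2 of 0.78 ± 0.10 for d7, and its fall from d7 to d10 was 2.22-fold, log2 -1.15 ± 0.10, adjusted p = 2.18e-09. IRF7, the factor that amplifies interferon production, had 82.8, 83.1 and 81.1 at d0 and 188, 185 and 119 at d7 without overlap, a log2 of 0.95 ± 0.18. IRF1, which is also induced by interferon gamma and by inflammatory signals, was between 305 and 531 in all libraries and had the smallest log2 difference of any member at d7, 0.03 ± 0.07 (adjusted p = 0.711).

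The mitochondrial and small interferon-induced proteins held the largest rise. IFI6, which protects mitochondria against loss of membrane potential, had 69.4, 68.7 and 60.4 at d0 and 188, 266 and 159.6 at d4. At d7 it had 1016, 1203 and 259.7, and the third d7 library fell within the range of d4 while the other two lay far above it. IFI6 rose at d7 (10.2-fold, log2 3.35 ± 0.33, adjusted p = 1.64e-08), and 16.5-fold without the third d7 library. It rose at d15, with 162, 189 and 165 normalised reads, and at d20, with 132, 134 and 152. At d10 it stood at 89.6, 93.3 and 81.2, above every d0 library though not called. IFI27, a small protein of the mitochondrial membrane, had 12.5, 8.48 and 13.8 at d0, 31.6, 39.9 and 47 at d4 and 58, 76.1 and 20.5 at d7, where the third library again was the lowest. It then had 8.96, 9.72 and 5.87 at d10, followed by 40.8, 40.7 and 40.4 at d15. It rose at d4 (log2 1.69 ± 0.37), d7 (1.90 ± 0.37) and d15 (1.75 ± 0.37), and its d10 values overlapped those of d0. It held fewer reads than most members, so its values carry more counting error.

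Of the RNA-binding antiviral proteins, OAS2 and OAS1 were called higher than d0 at d7. OAS1, OASL, IFIT1, IFIT2 and IFIH1 were called lower than d0 at d10. OAS2, which makes the oligoadenylates that activate RNase L, had 53.4, 43.3 and 39.6 at d0, 407, 663 and 123 at d7 and 26.9, 26.2 and 16.6 at d10, and the 3 groups did not overlap. It rose at d7 (7.01-fold, log2 2.81 ± 0.39, adjusted p = 1.81e-06; 11.3-fold without the third library) and fell from d7 to d10 (13.6-fold, log2 -3.76 ± 0.39, adjusted p = 2.49e-08; 21.9-fold without that library). OAS1, an enzyme of the same kind, had 175, 172 and 162 at d0, 439, 512 and 189 at d7 and 79.6, 71.9 and 54.8 at d10 and was called higher at d7 (log2 1.03 ± 0.23) and lower at d10 (-1.31 ± 0.23). OAS3, the third of these enzymes, did not share this course: it had 2996, 3052 and 3045 at d0, 3958, 4122 and 2914 at d7, 1274, 1208 and 1186 at d15 and 2783, 2853 and 2822 at d20. OAS3 fell at d15 (2.48-fold, log2 -1.31 ± 0.08, adjusted p = 5.74e-12), with no overlap with any other timepoint, and returned at d20 (2.31-fold, log2 1.21 ± 0.08, adjusted p = 4.11e-11).

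OASL, which lacks that enzyme activity and enhances RNA sensing, had 70.3, 67.9 and 74.2 at d0, 135, 196 and 84.7 at d7 and 12.9, 23.3 and 22.5 at d10. It was not called at d7 (log2 0.88 ± 0.23) although all 3 libraries exceeded d0, and it fell at d10 (3.59-fold, log2 -1.85 ± 0.23, adjusted p = 5.42e-07). IFIT1, which binds RNA whose cap lacks the methyl groups of the host, had 198, 236 and 215 at d0, 75.3, 87.2 and 105 at d1 and 311, 534 and 163 at d7. It had 64.7, 67 and 59.6 at d10 and, later, 91.8, 85 and 68.4 at d15. Its d7 libraries surrounded those of d0 (log2 0.48 ± 0.25, adjusted p = 0.103), while it fell at d1 (2.42-fold, log2 -1.28 ± 0.25, adjusted p = 0.000186), d10 (3.35-fold, log2 -1.74 ± 0.25, adjusted p = 3.26e-06) and d15 (log2 -1.40 ± 0.25). IFIT2, its relative, fell at d1 and d10 (log2 -1.10 ± 0.18 and -1.73 ± 0.18), from 248, 275 and 289.9 at d0 to 116, 134 and 127 at d1 and 89.6, 85.5 and 68.5 at d10. IFIT3, of the same family, was called on no day against d0 but fell from 483, 620.3 and 275 at d7 to 147, 167 and 139 at d10 (log2 -1.52 ± 0.18), on either side of 229.6, 252 and 295 at d0 apart from the third d7 library.

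The RNA sensors moved less. IFIH1, the sensor of long double-stranded RNA, had 463, 443 and 389.8 at d0, 564, 701 and 293 at d7 and 191, 188 and 195 at d10, and fell at d10 (2.25-fold, log2 -1.17 ± 0.18, adjusted p = 7.83e-06). In IFIH1 the third d7 library lay below all d0 libraries and the other two above them. DDX58, which encodes the sensor RIG-I, stayed within 2-fold of d0 on every day and was lowest at d15, with 210.1, 213 and 199.9 against 307, 293 and 302 at d0.

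Within the ISG15 pathway the modifier itself rose at d7, and the protease that removes it fell at d1, d10, d15 and d20. ISG15 had 105, 120.4 and 103 at d0, 125, 185 and 145 at d4 and 408, 541 and 173 at d7, before 106, 135 and 112 at d10. It rose at d7 (3.07-fold, log2 1.62 ± 0.25, adjusted p = 8.13e-06), with every d7 library above every d0 library, and its d10 values overlapped those of d0. USP18, which removes ISG15 from proteins and restrains the type I receptor, had 105, 107 and 91 at d0, 53.3, 45.1 and 46.6 at d1 and 77, 121 and 46.5 at d7. From d10 on all its libraries lay below every earlier one, with 16.9, 21.4 and 16.6 normalised reads at d10, then 27.5, 19 and 19.7 at d15 and 29.7, 41 and 33.3 at d20. USP18 fell at d10 (5.3-fold, log2 -2.41 ± 0.23, adjusted p = 1.02e-08), at d15 (log2 -2.16 ± 0.23), at d20 (-1.52 ± 0.23) and at d1 (-1.05 ± 0.23), and at d7 its libraries surrounded those of d0 (log2 -0.41 ± 0.23, adjusted p = 0.132). HERC5, the main ligase of ISG15, had 57, 69.5 and 57.4 at d0, 72.8, 115 and 52.1 at d7 and 16.9, 21.4 and 11.7 at d10, and fell at d10 (3.6-fold, log2 -1.85 ± 0.23, adjusted p = 3.72e-07) and d20 (log2 -1.16 ± 0.23). HERC6, a related ligase, fell at d10 (log2 -1.18 ± 0.19), from 239, 240.0 and 251 to 90.6, 126 and 107. UBE2L6, the conjugating enzyme, was called on no day against d0 but fell from 997, 1097 and 842 at d7 to 383, 452 and 409 at d10 (2.35-fold, log2 -1.23 ± 0.08, adjusted p = 1.89e-11) and rose to 1015, 1065 and 1063 at d15 (2.53-fold, log2 1.34 ± 0.08, adjusted p = 9.84e-13).

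The antiviral GTPases followed 3 courses. MX1, which traps viral nucleoproteins, had 79.2, 81.4 and 84.1 at d0, 158, 195 and 133 at d4 and 492, 807 and 121 at d7. The d10 libraries lay below all these, at 42.8, 45.7 and 25.4, and those of d15 back near d4, at 133, 169 and 123. In MX1 the third d7 library lay above d0 but below all 3 libraries of d4, and its rise at d7 (4.42-fold, log2 2.14 ± 0.41, adjusted p = 9.06e-05) came to 7.64-fold without it. MX1 fell from d7 to d10 (9.65-fold, log2 -3.27 ± 0.41, adjusted p = 3.61e-07, or 16.7-fold without the third d7 library). Its call below d0 at d10 (log2 -1.13 ± 0.41, adjusted p = 0.0186) was lost with edgeR, with quantile normalization or without the third d10 library. With the third d7 library left out of the fit, limma's adjusted p for that call was 4.93e-07. MX2, which restricts viruses at the nuclear pore, was near the floor except at d7. It had 14.8, 15.6 and 1.86 normalised reads at d7 and 0.89, 0 and 0 at d0, so its d7 mean was at least 3.94-fold higher than a floor of 3 reads per library, and this rested on the first and second libraries.

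GBP2, an interferon-induced GTPase of the guanylate-binding family, swung in both directions. It had 57, 69.5 and 75.2 normalised reads at d0, against 6.28, 11.3 and 6.95 at d1 and 24.2, 20.4 and 17.6 at d4. At d7 the values came to 96, 82.4 and 31.6 and at d10 to 4.98, 7.77 and 3.91. At d15 they stood at 74.5, 76.9 and 63.2, before 24.4, 25.3 and 34.3 at d20. The d1, d4, d10 and d20 libraries all lay below d0, whereas those of d15 overlapped it. It fell at d1 (7.6-fold, log2 -2.93 ± 0.32, adjusted p = 6.91e-08) and at d10 (10.7-fold, log2 -3.41 ± 0.32, adjusted p = 4.45e-09), the largest fall of any tested member against d0, and from d10 to d15 it rose (11.4-fold, log2 3.51 ± 0.32, adjusted p = 1.51e-09). GBP1, of the same family, fell at d10 (2.08-fold, log2 -1.06 ± 0.08, adjusted p = 2.86e-10), from 445, 429 and 426 at d0 and 618, 683 and 566 at d7 to 185, 238 and 203, and every d7 library lay above every d0 library.

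**Figure D4:**
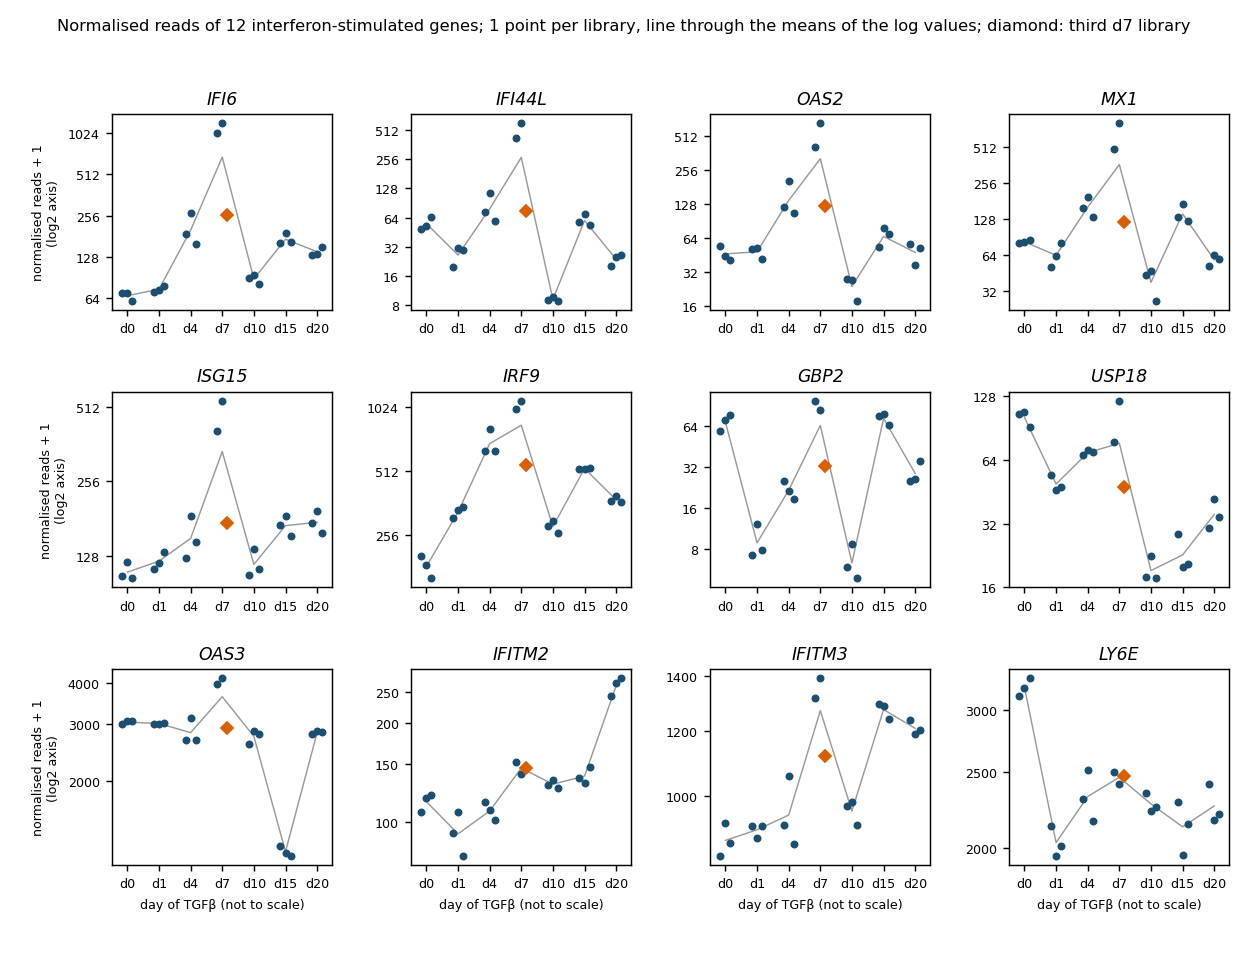
Each panel shows 1 member, with normalised reads plus 1 on a log2 axis against the day of TGFβ (evenly spaced, not to scale), 1 point per library, a grey line through the means of the log values and a diamond for the third d7 library. IFI6, IFI44L, OAS2, MX1 and ISG15 peak at d7 in the first and second library, GBP2 dips at d1 and d10, OAS3 dips at d15 alone, IFITM2 is highest at d20, and USP18 and LY6E are highest at d0.

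Of the 5 membrane proteins, 2 were called higher than d0 at d7, against 8.79% of all genes, and 1 at d20, against 7.51%. In the same group 1 was called higher at d4, against 9.68%, and 1 lower at d10, against 7.34%. BST2 (tetherin), which holds budding virus particles at the cell surface, had 53.4, 40.7 and 36.6 at d0, 207, 265 and 67 at d7 and 14.9, 11.7 and 15.7 at d10 without overlap between the 3 groups. It rose at d7 (3.53-fold, log2 1.82 ± 0.34, adjusted p = 6.72e-05; 5.34-fold without the third library) and fell at d10 against d0 (2.94-fold, log2 -1.56 ± 0.34, adjusted p = 0.000338). IFITM1, which hinders fusion of viruses with the cell membrane, had 3.56, 4.24 and 6.93 at d0, 2.09, 2.05 and 1.98 at d1 and 57, 54.2 and 9.31 at d7. It rose at d7 (log2 2.48 ± 0.53, adjusted p = 0.000344), 5.58-fold with all 3 libraries and 9.85-fold without the third, and with d1 at the floor its d7 mean was at least 13.1-fold higher than at d1. Its call at d4 (adjusted p = 0.0349) was lost without any 1 of 4 libraries and with equal totals, quantile normalization or a pseudocount of 10. IFITM2, which acts on the same step in endosomes, had 106, 117 and 119.7 at d0, 135, 130.2 and 146 at d15 and 242, 265 and 274 at d20, and rose at d20 (2.27-fold, log2 1.18 ± 0.10, adjusted p = 1.63e-09). IFITM3, its close relative, ranged between 845 and 1391 in all libraries and was called on no day. The IFITM genes are near copies of each other, so reads shared between them can have been assigned to either. The same holds for any reads that the less similar IFIT1 to IFIT3 share. LY6E, a lipid-anchored surface protein, was lower at all later days by adjusted p and under 2-fold throughout, with 3132, 3204 and 3297 at d0, 2132, 1952 and 2012 at d1 and 2498, 2416 and 2470.2 at d7.

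Among the other antiviral and regulatory proteins, IFI44L had the widest swing of any tested member. IFI44L, a negative regulator of the interferon response, had 48.1, 51.7 and 64.3 normalised reads at d0. It had 18.8, 29.7 and 28.8 at d1, 71.5, 113 and 57.8 at d4 and 424, 598 and 73.5 at d7. After a d10 with 7.96, 8.75 and 7.82, it stood at 56.1, 67.8 and 52.8 (d15) and 19.1, 24.2 and 25.5 (d20). The third d7 library lay just above d0 and within the range of d4, and the d10 libraries lay below all others. It rose at d7 (4.83-fold, log2 2.27 ± 0.46, adjusted p = 0.000186; 9.13-fold without the third library), fell from d7 to d10 (29.1-fold, log2 -4.86 ± 0.46, adjusted p = 7.24e-09; 55.1-fold without the third d7 library) and lay below d0 at d10 (6.03-fold, log2 -2.59 ± 0.46, adjusted p = 3.99e-05). IFI44, a relative of IFI44L, had 253, 254 and 219 at d0, 671, 890.4 and 338 at d7 and 232, 214 and 204 at d10 and rose at d7 (2.43-fold, log2 1.28 ± 0.20, adjusted p = 1.08e-05), without a fall below d0 at d10 (log2 -0.16 ± 0.20).

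XAF1, which antagonizes an inhibitor of apoptosis, had 2.67, 7.63 and 14.8 at d0 and 32.7, 37.5 and 15.8 at d7, so that the d0 libraries themselves differed and the third d7 library lay just above the highest of them. It rose at d7 (log2 1.81 ± 0.44, adjusted p = 0.00112). SAMD9L, which blocks translation in infected cells, had 155, 141 and 140.5 at d0 and 299, 396 and 245 at d7 and rose at d7 (2.11-fold, log2 1.08 ± 0.15, adjusted p = 2.98e-06). SAMD9, its paralog, was called on no day against d0 and stepped down from 929.8, 897 and 864 at d1 to 427, 454 and 459 at d4. PARP9 and PARP14, poly-ADP-ribose polymerase family members, and EPSTI1 were called on no day against d0 but all fell from d7 to d10. PARP9 went from 789, 984 and 579 at d7 to 359, 362 and 323 at d10 (log2 -1.14 ± 0.12). PARP14 went from 1647, 1870.4 and 1314 to 760.3, 829.9 and 714 (-1.06 ± 0.08). EPSTI1 went from 367, 416 and 262 to 164, 169 and 170.1 (-1.02 ± 0.12), and in these 3 genes too no d7 library overlapped d10. IFI16 and IFI35 were called in no comparison, with a log2 of -0.47 ± 0.06 and -0.80 ± 0.09 from d7 to d10.

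Both nucleotide enzymes lay too low to test. RSAD2 (viperin), which makes a chain-terminating nucleotide, had 7.12, 5.09 and 10.9 at d0, 9.5, 19.8 and 4.65 at d7 and 0, 2.92 and 1.96 at d10. CMPK2, which supplies its substrate, had 2.11, 9.38 and 0 at d7 and at most 3.18 in any library of the other timepoints. No difference between days was detectable for CMPK2 at this depth.

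In total, 24 of the 38 tested members were called on at least 1 day against d0, against 30.4% of all genes tested. The 14 called on none were IFIT3, DDX58, STAT2, IRF1, IRF7, UBE2L6, IFITM3, LY6E, SAMD9, PARP9, PARP14, EPSTI1, IFI16 and IFI35.

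Among the interferon ligands, those known from keratinocytes and other epithelia held the most reads to test, and the classic ones stayed under the filter. The 12 ligands in the table included 2 that passed the filter. IFNK, a type I interferon of keratinocytes, was listed at 0 in all d0 libraries. It had 16.7, 18.5 and 6.95 normalised reads at d1, then 40.0, 33.1 and 28.4 at d4. It was highest at d7, with 70.7, 67.8 and 24.2, and lower again at d10, with 14.9, 10.7 and 7.82. At d15 and d20 its libraries ran from 5.18 to 10.6. No d0 library held a read, every later library did, and the d7 mean was at least 19.9-fold higher than the floor of 3 reads per library. The third d7 library was again the lowest of its timepoint. IFNE, a type I interferon of reproductive epithelia, had 29.4, 32.2 and 28.7 at d0, 66.9, 65.6 and 89.3 at d1 and 20.1, 40.7 and 73.5 at d7. At d10 it had 59.7, 75.8 and 73.3. It was called higher at d1 (log2 1.26 ± 0.28) and d10 (1.18 ± 0.28). At d7 the third library held the most of the 3, where it held the least of nearly all members, and d7 was not called (log2 0.38 ± 0.28). IFNB1 reached at most 2.94 and IFNA1 at most 4.98 normalised reads in any library, and IFNG was listed at 0 in all.

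The receptors stayed near d0 and 2 inhibitors rose early. Each of the 6 receptors tested stayed within 2-fold of d0 on every day. IFNAR1, a chain of the type I receptor, had 1362, 1359.7 and 1281 at d0 and 1425, 1508 and 1452 at d7, and IFNAR2, its partner in the type I receptor, had 309, 332 and 296 and 400.0, 364 and 463 on the same days. IFNGR1, the ligand-binding chain for interferon gamma, was the exception between neighbouring days: it had 1667, 1686 and 1056 at d7, 708, 704 and 688 at d10 and 1572, 1611 and 1542 at d15 and was called at both steps. Of the 10 genes of receptor signalling, 2 were called higher on every day. On single days 6.47% (d1) to 11.7% (d15) of all genes were called higher. The 2 genes were SOCS1 and SOCS3, feedback inhibitors of the JAK kinases. SOCS1 had 13.3, 13.6 and 10.9 at d0 and 86.8, 76.9 and 87.3 at d1 and rose at d1 (6.24-fold, log2 2.64 ± 0.13, adjusted p = 1.69e-13), with every later library above d0. SOCS3 reached 581, 535 and 578 at d15 from 52.5, 45 and 27.7 at d0 (13.7-fold, log2 3.77 ± 0.17, adjusted p = 2.34e-14).

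Other genes of the pathway gave a mixed picture. Among the 16 nucleic acid sensing genes tested, TLR3 was called lower at d1, d4 and d10 and DHX58 at d10. DHX58 (LGP2), a regulator of the RNA sensors, had 152, 161 and 163 at d0, 302, 329 and 185 at d7 and 52.8, 61.2 and 41.1 at d10 (log2 -1.62 ± 0.16 for d10 against d0). TLR3, the endosomal receptor for double-stranded RNA, had 174, 166 and 194 at d0, 203, 249 and 99.6 at d7 and 63.7, 50.5 and 53.8 at d10 (log2 -1.66 ± 0.22). Its libraries of d1 (105, 87.2 and 71.5) and d4 (85.2, 79.8 and 90.1) lay below every d0 library too. SAMHD1 and RNASEH2A, enzymes that remove nucleotides and RNA-DNA hybrids, were lower at d15 (log2 -1.15 ± 0.08 and -1.59 ± 0.08). Of 39 further interferon-stimulated genes tested that are not members, 4 were called higher at d7, a share near the 8.79% of all genes, with a median log2 of 0.54 against 0.53 for the members. These were TRIM22, TNFSF10, C19orf66 and ISG20. TRIM22, an antiviral ubiquitin ligase, had 91.7, 75.5 and 96 at d0, 778, 825 and 179 at d7 and 35.8, 52.5 and 42 at d10. TNFSF10 (TRAIL), a death ligand, had 247, 264 and 265 at d0, 1527, 1589.9 and 818 at d7 and 198, 224 and 194 at d10. In both the third d7 library was the lowest of the 3 and every d10 library lay below every d0 and d7 library. ISG20 was not called at d7 without the third d7 library (log2 0.78). At d10, 3 of the 39 were called higher and 4 lower, shares near the 6.94% and 7.34% of all genes, at a median log2 of 0.09 against -0.60 for the members. ISG20, an exonuclease, stood above d0 throughout and highest at d20, with 55.2, 52.6 and 56.4 at d0, 266, 295 and 265 at d10 and 337, 358 and 344 at d20. SLFN5 and GBP3 likewise stood above every d0 library at d1 and after (log2 at d20 1.29 ± 0.06 and 1.24 ± 0.05). At d15, 7 of the 39 were called higher (C19orf66, PARP10, PML, RNF213, SLFN5, TNFSF10 and TRIM22), against 11.7% of all genes, and 3 lower, against 8.66%. PARP10, RNF213 and PML had not been called higher on an earlier day (log2 1.70 ± 0.19, 1.11 ± 0.06 and 1.00 ± 0.07) and the 3 lower were TRIM14, PNPT1 and NLRC5 (-1.05 ± 0.07, -1.26 ± 0.07 and -1.01 ± 0.12). DDX60, IFI30 and NMI were lower at d10 (-1.14 ± 0.18, -1.08 ± 0.12 and -1.01 ± 0.11).

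**Figure D5:**
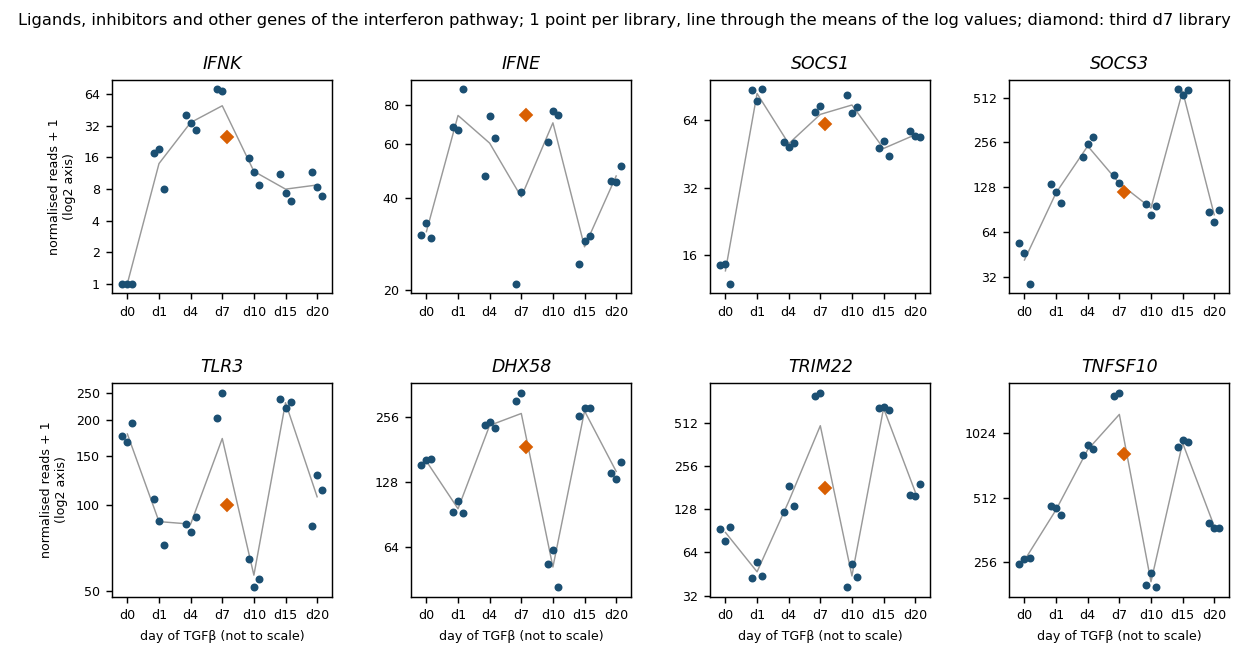
Panels give normalised reads plus 1 on a log2 axis against the day of TGFβ (evenly spaced, not to scale) for 2 ligands, 2 inhibitors and 4 further genes of the pathway, with 1 point per library, a grey line through the means of the log values and a diamond for the third d7 library. IFNK is at 0 reads at d0 and highest at d7, IFNE is high at d1 and d10, SOCS1 steps up at d1, TLR3 is low at d1, d4 and d10, and DHX58, TRIM22 and TNFSF10 dip at d10.

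Proliferation and basal epithelial genes also moved between these timepoints. Their summed level per library was 70097 to 71084 normalised reads for 15 proliferation genes at d10, 24720.0 to 25541 at d15 and 74113 to 77449 at d0. The 6 basal epithelial genes summed to 329615 to 340977 at d10, the lowest of the timepoints, to 599209 to 618157 at d15 and to 345236 to 368918 at d0. The mean log2 level of the members ran from 6.68 to 6.86 per library at d10, 7.55 to 7.66 at d15, 7.52 to 7.59 at d0 and 7.82 to 8.93 at d7. The part of cell cycle and of epithelial state in the members' course was not tested. In bulk RNA a smaller share of expressing cells and less RNA per cell cannot be told apart.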

How the data were processed

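RNA was extracted from HMLE cells at 7 timepoints and sequenced as 21 libraries. The submitters' processing notes name STAR 2.7, Salmon 1.4 and the build hg19; their roles, the annotation and the strand setting are not given in the sources used here. The authors deposited 1 table of normalised read counts, a signal that proved to be whole reads divided by 1 size factor per library (100% of values within 0.0051 of a whole multiple). Related genes (IFITM1 to IFITM3, IFIT1 to IFIT3, the OAS and GBP genes, SAMD9 with SAMD9L, IFI44 with IFI44L) may share some reads.

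Genes with a mean of at least 10 were fitted on log2(value + 1) over all libraries with limma 3.58.1 (trend), with Benjamini-Hochberg adjustment over all genes tested. Fold changes are on that log2(value + 1) scale and understate the change of low genes. A gene was called from a 2-fold change upwards with an adjusted p below 0.05. Errors are standard errors of the fit. In R 4.3.3, edgeR 4.0.16 and DESeq2 1.42.0 were run on the recovered reads as alternatives. On simulated counts limma, edgeR and DESeq2 each called 195 of 198 changed genes and 0 unchanged ones. The simulation gave all genes the same dispersion, no deviating library and only changes above 2-fold. It could not judge the third d7 library or calls near the 2-fold limit. No test for these libraries is stated in the study's methods. Library order follows the table's columns, which name the timepoint alone, so replicate numbers only name a library. The floor of 3 reads covers counting error only.

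Every member could be named; those called on a day against d0 or between neighbouring days are given with library values, the others by range and count. The members, the gene lists and the tests were chosen with earlier results of these data known. Promoter windows were read from RefSeq for sequence only, since their build, GRCh38.p14, differs from that of the table. Some genes of the gene lists are not reported here.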

Additional observations from a re-analysis of the deposited data

How the results depend on the processing

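Of 314 recomputed counts of members, 291 stayed within 1.5 times the value given above and 23 moved. Of 120 called values of single members, 108 kept an adjusted p under 0.05 in every alternative and 12 lost it in at least 1; the call of IFI44L at d20 was lost in 4, with adjusted p from 0.0521 to 0.0931. Counts by edgeR, by DESeq2 and without the filter on low values all stayed within 1.5 times. Without a minimum fold, members higher and lower than at d0 came to 3 and 17 (d1), 12 and 12 (d4), then 28 and 1 (d7), 1 and 24 (d10), with 12 and 11 at d15 against 7 and 13 at d20; the added calls are those under 2-fold. Under that rule 31.3% to 39.2% of all genes were higher and 28.5% to 37.3% lower on these days, so that 12 of 38 members at d4 is a share below that of all genes. With a pseudocount of 10, 3 members were lower at d1, 3 lower at d20 and 0 lower from d1 to d4. Equal totals moved the median of all genes by -0.14 to -0.20 against d0, so that 0 members were higher at d20, and the member median at d4 turned from 0.14 to -0.06 and at d15 from 0.06 to -0.10. Quantile normalization left 0 lower from d1 to d4 and 2 higher from d15 to d20. With only both timepoints in the fit, 6 members rose from d4 to d7. Without 1 library at a time, 5 to 16 members rose from d4 to d7, 0 to 1 fell from d1 to d4, 9 to 17 were higher at d7 and 23 to 30 fell from d7 to d10. The causes of these shifts were not tested. Leaving the third d7 library out of the fit was an alternative chosen after seeing the data. All 16 counts of comparisons without d7 then stayed within 1.5 times. Members lower at d10 than at d0 came to 14 without that library and 13 with it. Leaving it out changed limma's adjusted p in these comparisons, because each gene has a single spread over all libraries. For IFI44L at d20 it went from 0.026 to 2.33e-06, and for IFITM2 at d10 from 0.127 to 0.134. No paired analysis was possible because replicate numbers stand in no column name of the table. Depth limits MX2, RSAD2 and CMPK2, whose values rest on few reads.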
